A study of Mus musculus with 38 samples.

Results

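The 9 genes described here, Tgfb1, Tgfb2, Tgfb3, Tgfbr1, Tgfbr2, Tgfbr3, Inhba, Smad7 and Ltbp2, are ligands, receptors and regulated genes of TGF-beta signalling. They were chosen by name for their place in the pathway, with earlier results of these data known, and all 9 were found by symbol among the 21705 genes of a mouse RNAseq table. The study built mouse models of renal cancer in which MYC is switched on in kidney tubules by doxycycline (Dox), with or without loss of Vhl and of the Ink4a/Arf locus. The table holds 38 libraries in 10 groups, 24 from tumour-derived cell lines and 14 from tissue.

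The MYC transgene (Tet-O-MYC) is driven by a reverse tetracycline transactivator under the kidney-specific Ksp promoter (Ksp-rtTA), and floxed Vhl is removed by KspCreERT2 after 3 days of tamoxifen. Ink4a/Arf is missing from the germline, so every cell of those animals lacks it, stroma included. Mice with tumours received Dox in their chow. The 3 tumour genotypes are MYC+ (here MYC), Vhl-/- with MYC + (VM), and Vhl-/- with MYC + and Ink-/-/Arf-/- (VIM), with 3 libraries each. The MYC tumour libraries come from only 2 mice, 2917 and 2983, the latter giving libraries 2 and 3, which were averaged into 1 animal for tests. Normal kidney came from 5 wild type animals given vehicle, 2 labelled B6 and 3 labelled KT, a code whose meaning the labels do not give. Each genotype is represented in culture by 1 line, MYC-2983, VM-3055 and VIM-3039 (the last pair of line numbers is the paper's, as the labels carry the genotype alone). Each line gave 4 libraries labelled as maintained on dox (2 µg per ml in the medium, collected 24 h after plating) and 4 labelled as withdrawn from it. The tumour libraries carry the label of Dox maintenance as well. Ages are not given in the labels.

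TGF-beta ligands are secreted as latent complexes bound to the matrix by latent TGF-beta binding proteins, and are released by integrins and proteases. Active ligand brings together the type II and type I receptors, which phosphorylate SMAD2 and SMAD3. These enter the nucleus with SMAD4 and change the transcription of matrix, cytoskeletal and cell cycle genes, among them inhibitors such as Smad7 that end the signal. In the kidney the pathway is best known for fibrosis and for the loss of epithelial character in tubule cells.

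Levels are in the units of the deposited table, in which the authors scaled the upper quartile of each library to 1000. The worth of 1 read was read off the smallest steps of the values, giving an estimated 8.22 to 36.6 M reads per library, where M stands for mega. Cell libraries were deeper, with group medians of 14.3 to 25.6 M, than tumours (9.59 to 11.8 M), while kidneys had a median of 13.4 M. A level of 3 reads, worth 1.16 to 5.65 units depending on the library, was taken as the floor, which covers counting error only. Tests used limma, fitted to all genes after adding 1 and taking log2. To pass, a gene needed an absolute log2 difference above 1 as well as a Benjamini-Hochberg adjusted p below 0.05. The p-values measure the spread between these samples. In culture those are dishes of a single line, so that line and genotype cannot be told apart. Sample titles number VM-3055 and VIM-3039 in a shared series, while the numbers of MYC-2983 start anew. MYC-2983 libraries were also deeper, with group medians of 24.8 and 25.6 M against 14.3 to 18.8 M in the other lines. What the numbers mean is not given, so a separate sequencing set cannot be told apart from that line either. Normal kidneys differ from tumours in genotype and in Dox, and removal of Vhl in VM and VIM mice also used tamoxifen. These cannot be told apart. Within each group, no library was a copy of another.

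The engineered genes were read first as a check of the labels. Vhl stood at 433 to 461 units in MYC-2983 libraries labelled Dox and at 526 to 543 in those without. In VM-3055 it was 10.3, 14.5, 12.7 and 14.9 units with the Dox label and 25.6, 35.3, 38.8 and 24.3 without. In VIM-3039 it was 18.05, 8.32, 12.5 and 12.1 with the label and 9.49, 15.6, 18.4 and 24.9 without. Vhl was therefore low in both lines of Vhl-deleted genotype. Among tissues it reached 468 to 560 units in MYC tumours, 79.9, 40.2 and 40.7 in VM tumours, 226, 219 and 312 in VIM tumours, and 612 to 772 in kidney. Cdkn2a, the gene of the Ink4a/Arf locus, stood at 24.9 to 40.8 units in all VIM-3039 libraries against 3056 to 5701 in the other 2 lines. It was 33.9, 30.1 and 95.5 units in VIM tumours, 4298, 4347 and 3392 in VM tumours and at most 3.80 in kidney. The 2 libraries of MYC tumour mouse 2983 differed, at 2872 units in library 2 and 59.3 in library 3, while mouse 2917 had 108.

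Values of the Myc gene were lower with the Dox label in all 3 lines. Its level was 651 to 699 units in MYC-2983 libraries labelled Dox and 1764 to 1868 in those without. In VM-3055 it was 338 to 413 units with the label and 1308 to 1406 without, and in VIM-3039 360 to 432 with it and 1384 to 1532 without. Each line thus had lower values for Myc where the label says that Dox was maintained. Whether reads of the transgene are counted in these values is not known from the table, so they do not test the label. Nolc1, Ncl and Odc1, chosen after their values were seen, differed the other way. Nolc1 rose with the label by 1.49, 2.29 and 2.42 (log2) in MYC-2983, VM-3055 and VIM-3039, and Ncl by 1.21, 1.95 and 2.08. For Odc1 the difference was 0.20, 0.87 and 1.44, of which only the last passed. Between labels, Myc thus ran one way and Nolc1 and Ncl the other. The cell groups are called here by their label, "labelled Dox" or "without Dox", and every direction given for Dox is a direction between labels. In tissue Myc was 208 to 801 units in the 9 tumour libraries and 40.7 to 119 in kidney.

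In the mm9 assembly (NCBIM37) Tgfb1 lies on chromosome 7 (26472021 to 26490096, plus strand), Tgfb2 on chromosome 1 (188447065 to 188529871, minus strand) and Tgfb3 on chromosome 12 (87397694 to 87419991, minus strand). Ltbp2 lies on the same chromosome and strand as Tgfb3, from 86124162 to 86217482. The receptors Tgfbr1, Tgfbr2 and Tgfbr3 are on chromosomes 4, 9 and 5, Inhba on 13 and Smad7 on 18. On the opposite strand, Tgfb2 overlaps SNORA70, Tgfbr3 overlaps Gm8145 and Ltbp2 overlaps D030025P21Rik. Whether counting used strand is not given in the sources used here, so values of these 3 members are uncertain to the extent that reads came from their antisense partners.

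Between libraries labelled Dox and those without, 5 of 9 members passed as lower in MYC-2983 (15% of 15104 genes did), 7 in VM-3055 (18.9% of 14319) and 5 in VIM-3039 (16.6% of 13998). As higher, 0 members passed in any line by limma, where 4.49%, 5.92% and 7.67% of genes did. At an unadjusted p under 0.05, 0 members were higher and 8, 9 and 9 were lower, and limma voom also called 0 higher. The median log2 difference of the members was −1.06, −1.41 and −1.20, beside −0.13, −0.26 and −0.15 for all genes tested. Tgfb3, Tgfbr2, Inhba and Ltbp2 passed as lower in all 3 lines, Tgfb1 in MYC-2983 and VM-3055, Tgfb2 in VIM-3039, and Tgfbr3 and Smad7 in VM-3055. Tgfbr1 passed in none of the lines. The calls of all genes leaned to lower as well, by an amount that varied with scaling. Of all calls, 77%, 76.2% and 68.4% were lower with the authors' scaling, 73.2%, 69.2% and 65.7% after TMM, and 57.6%, 53% and 50.7% after quantile normalization, which gives all libraries the same distribution. For genes averaging 50 units or more, the median shift in VM-3055 was −0.17 with the authors' scaling, −0.06 after TMM and 0.00 after quantile normalization, so changes in that line should be read against it. Quantile normalization left 4, 4 and 5 members lower. Of all genes, 1471, 1465 and 1416 then passed as lower, where 2264, 2707 and 2322 did with the authors' scaling.

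**Figure D1:**
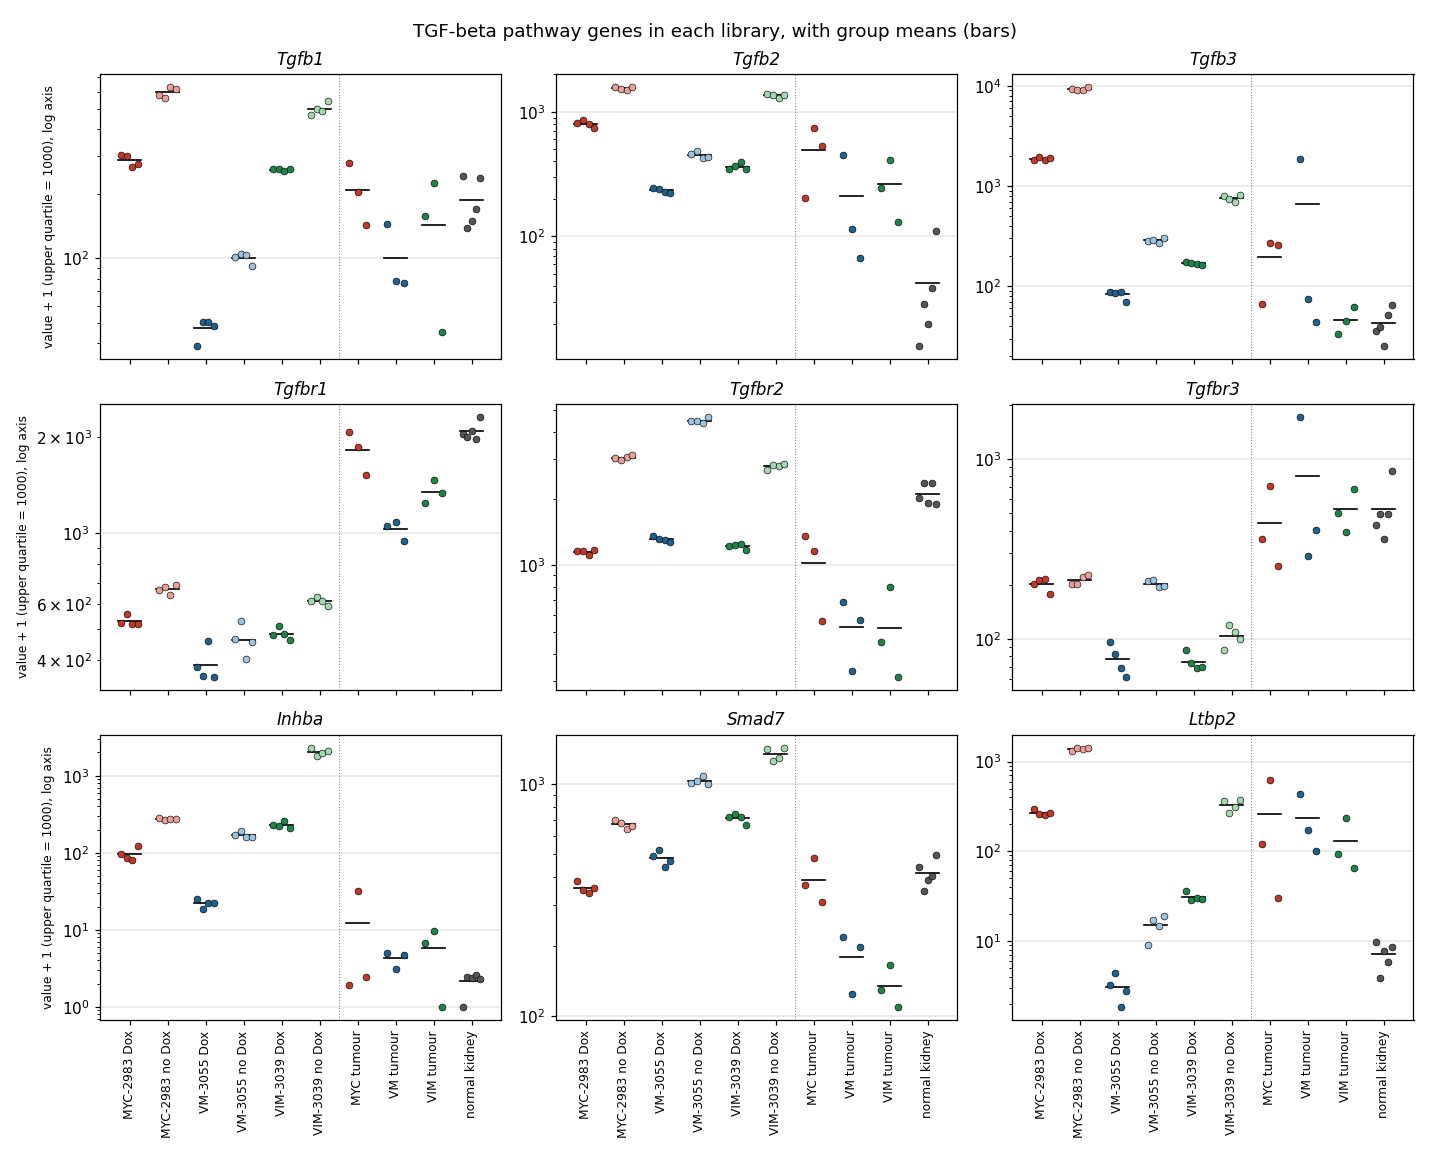
Level of each of the 9 members in every library, as the deposited value plus 1 on a log axis, by group (4 libraries per cell group, 3 per tumour genotype, 5 normal kidneys), with a bar at the group mean. Tgfb3, Tgfbr2, Inhba and Ltbp2 sit lower in the libraries labelled Dox of all 3 lines, and Ltbp2 is 29.3 units or more in every tumour against at most 8.65 in kidney.

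Tgfb1 encodes the ligand that is most widely made across tissues. Its values in MYC-2983 were 301, 300.2, 266 and 273 units in libraries labelled Dox and 581, 557, 629 and 614 in those without. In VM-3055 they were 37.7, 49.4, 49.2 and 47.4 with the label and 101, 104, 102 and 91.2 without. In VIM-3039 they were 259, 259, 255 and 259 with it and 466, 497, 488 and 544 without. The groups did not overlap in any line, and VM-3055 was the line with the least Tgfb1 in either condition. The log2 difference was −1.06 ± 0.052 (SE) in MYC-2983, with a limma adjusted p of 1.34e-12. It was −1.10 ± 0.131 in VM-3055 (limma adjusted p = 5.44e-07). In VIM-3039 it was −0.95, short of the threshold for size (limma adjusted p = 2.66e-12). Quantile normalization took Tgfb1 below the threshold in MYC-2983 (−0.96) and VM-3055 (−0.39), and a pseudocount of 10 did so in VM-3055 (−0.97).

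Tgfb2 encodes the ligand that needs the co-receptor betaglycan most for binding its type II receptor. MYC-2983 libraries labelled Dox had 805.0, 857, 792 and 747 units and those without had 1574, 1531, 1494 and 1577. VM-3055 had 245, 239, 227 and 221 units with the label and 458, 480.0, 424 and 431 without. VIM-3039 had 344, 363, 391.7 and 344 with the label and 1388, 1353, 1301 and 1370.4 without. Tgfb2 was lower in every library labelled Dox than in any without it, in each line, and the gap was widest in VIM-3039. The log2 difference in VIM-3039 was −1.91 ± 0.0473 (SE; limma adjusted p = 4.71e-19). In MYC-2983 and VM-3055 it was −0.95 and −0.94 and did not pass for size, with limma adjusted p of 5.05e-14 and 6.39e-10. The interaction of Dox with line was −0.96 for VIM-3039 minus VM-3055 (limma adjusted p = 3.07e-09), just under the threshold for size. It passed at −1.005 without library 3 of VIM-3039 labelled Dox, at −1.03 after TMM and at −1.16 after quantile normalization. Against MYC-2983 the interaction was also −0.96 (limma adjusted p = 3.26e-11) and did not pass.

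Tgfb3, the third ligand, reached the highest level of any member. MYC-2983 held 1813, 1930.4, 1839 and 1887 units in libraries labelled Dox and 9308, 9066, 9168 and 9706 in those without. VM-3055 held 87.2, 84.3, 86.6 and 69.3 units with the label against 285, 287, 272 and 305. VIM-3039 held 175, 171, 165 and 162 against 803, 744, 699 and 817. MYC-2983 thus had more Tgfb3 with the Dox label than either other line had without it. Tgfb3 fell by 2.32 ± 0.0281 on the log2 scale with the label in MYC-2983 (limma adjusted p = 1.23e-19). It fell by 1.80 ± 0.0971 in VM-3055 (limma adjusted p = 1.09e-11). In VIM-3039 the fall was −2.18 ± 0.0614 (limma adjusted p = 3.56e-18). The interactions did not pass for size, the largest being 0.51 for VM-3055 minus MYC-2983 (limma adjusted p = 2.22e-05, 1.04 and past the threshold after quantile normalization).

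Inhba encodes the beta A subunit of activin A, a ligand that signals through its own receptors to the same SMADs. Its levels in MYC-2983 were 93.9, 83.2, 80.2 and 121 units with the Dox label and 285, 263, 274 and 277 without. In VM-3055 they were 24.4, 17.9, 21.2 and 21.1 with it and 169, 191, 158 and 159 without. In VIM-3039 they were 226, 223, 254 and 208 with it and 2316, 1816, 1984 and 2114 without. VIM-3039 had the most Inhba in both conditions, and no line showed overlap between its labelled and unlabelled libraries. Inhba fell by 1.55 ± 0.101 (log2, SE) in MYC-2983, with a limma adjusted p of 8.36e-11. The fall in VM-3055 was −2.95 ± 0.138, or 7.71-fold (limma adjusted p = 1.66e-12), and that in VIM-3039 was −3.17 ± 0.0652 (limma adjusted p = 2.83e-20). The difference of these effects passed between VM-3055 and MYC-2983, with an interaction of −1.40 ± 0.171 (limma adjusted p = 1.02e-06). It also passed between VIM-3039 and MYC-2983, at −1.62 ± 0.136 (limma adjusted p = 2.15e-09). Quantile normalization took the first of these to −0.57. Between VIM-3039 and VM-3055 the interaction was −0.22 (limma adjusted p = 0.226), and −1.11 and past the threshold after quantile normalization.

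Tgfbr2, the type II receptor that binds the ligand and activates the type I receptor, had similar levels in the 3 lines under the Dox label. MYC-2983 had 1156, 1158, 1114 and 1172 units with it and 3035, 2977, 3075 and 3155 without. VM-3055 had 1348, 1317, 1296 and 1275 units with the label and 4469, 4472, 4367 and 4646 without. VIM-3039 had 1218, 1229.8, 1245 and 1175 with it and 2687, 2824, 2796 and 2867 without. Libraries of one condition lay close together, and the conditions were far apart in every line. Tgfbr2 fell by 1.41 ± 0.0272 (log2, SE) in MYC-2983, by 1.78 ± 0.0406 in VM-3055 and by 1.198 ± 0.0333 in VIM-3039. The limma adjusted p was 6.2e-18, 3.44e-16 and 2.84e-18 in that order. The interactions did not pass for size, at 0.58 for VIM-3039 minus VM-3055 (limma adjusted p = 4.28e-09), −0.37 for VM-3055 minus MYC-2983 and 0.21 for VIM-3039 minus MYC-2983.

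Tgfbr1, the type I receptor kinase that phosphorylates SMAD2 and SMAD3, showed small differences with the label. MYC-2983 had 523, 556, 519.6 and 519.4 units of Tgfbr1 with the label and 664, 678, 638 and 689 without, a log2 difference of −0.33. VM-3055 had 379, 355, 458 and 354 with it and 464, 530.1, 403 and 457 without, which overlapped, with a difference of −0.26 (limma adjusted p = 0.0135). VIM-3039 had 478, 511, 482 and 460.5 with it and 613, 629, 610.2 and 591 without, a difference of −0.34. Tgfbr1 therefore did not pass for size in any line, and its interactions lay between −0.08 and 0.07.

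Tgfbr3, which encodes betaglycan, the co-receptor that presents ligand to the type II receptor, passed in 1 of the 3 lines. MYC-2983 had 201, 211, 214 and 177 units with the label and 199.5, 199.4, 220.5 and 225 without. VM-3055 had 94.6, 81.7, 67.9 and 60.5 units with it and 207, 211, 192 and 196 without. VIM-3039 had 85.4, 72.1, 67.6 and 68.7 with it and 85.4, 118, 108 and 98.7 without. The conditions overlapped in MYC-2983, met at 85.4 units in VIM-3039 and were apart in VM-3055. Tgfbr3 fell by 1.41 ± 0.125 (log2, SE) in VM-3055 (limma adjusted p = 1.08e-08), and the difference was −0.82, short of the threshold, after quantile normalization. The differences in MYC-2983 and VIM-3039 were −0.07 (limma adjusted p = 0.35) and −0.47 (limma adjusted p = 0.00225). Its interaction for VM-3055 minus MYC-2983 passed, at −1.34 ± 0.151 (limma adjusted p = 3.68e-07; −0.96 after quantile normalization). For VIM-3039 minus VM-3055 it was 0.94 (limma adjusted p = 0.000453), which passed only without library 2 of VIM-3039 without Dox (1.01) or library 1 of VM-3055 labelled Dox (1.05).

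Ltbp2 encodes a matrix protein of the latent TGF-beta binding family that is found on elastic fibres. MYC-2983 held 298, 258, 252 and 267 units with the label and 1308, 1400.4, 1378 and 1432 without. VM-3055 held 2.22, 3.404, 0.849 and 1.75 units with it, 3 of the 4 at or under the floor, and 7.94, 16.2, 13.7 and 17.99 without. VIM-3039 held 35.3, 27.8, 29.1 and 28.3 with it and 365, 268, 308 and 369 without. The lines were far apart, with Ltbp2 near the limit of detection in VM-3055 and plentiful in MYC-2983. Ltbp2 fell by 2.36 ± 0.0476 (log2, SE) in MYC-2983 (limma adjusted p = 1.1e-17) and by 3.39 ± 0.125 in VIM-3039 (limma adjusted p = 3.28e-16). In VM-3055 the fall was −2.30 ± 0.335 (limma adjusted p = 6.36e-06), and −0.98, short of the threshold, with a pseudocount of 10. The interaction for VIM-3039 minus MYC-2983 was −1.04 ± 0.128 (limma adjusted p = 7.05e-07). It fell short of the threshold for size, at −0.98, −0.98 and −0.99, without library 1 or 4 of VIM-3039 without Dox or library 1 of MYC-2983 labelled Dox, and after quantile normalization (−0.30) or with a pseudocount of 10 (−0.75). For VIM-3039 minus VM-3055 it was −1.09 ± 0.357 (limma adjusted p = 0.0218). With 3 of the 4 VM-3055 libraries labelled Dox at or under the floor, a larger fall in VIM-3039 cannot be read from this call. It was lost without library 2 of VM-3055 labelled Dox (−0.89, limma adjusted p = 0.0506) or library 1 of VM-3055 without Dox (−0.86, limma adjusted p = 0.052), and with a pseudocount of 0.1 (−0.64), quantile normalization (−0.93) or limma voom (−0.80).

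Smad7 encodes the inhibitory SMAD that blocks the type I receptor, and is itself induced by the pathway. MYC-2983 had 384, 347, 340 and 357 units with the Dox label and 703, 683, 641 and 663 without. VM-3055 had 489.9, 521, 439 and 466 with it and 1016, 1035, 1091 and 1003 without. VIM-3039 had 726, 742, 721 and 668 with it and 1423, 1265, 1297 and 1443 without. In each line the libraries without Dox had close to double the Smad7 of the labelled ones, with no overlap. The log2 difference was −1.11 ± 0.0576 (SE) in VM-3055, where it passed (limma adjusted p = 6.35e-12; −0.96 after quantile normalization). In MYC-2983 and VIM-3039 it was −0.91 and −0.92, below the threshold for size. The interactions for Smad7 lay between −0.20 and 0.19 and none passed.

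Differences in the Dox effect between lines were therefore called for 3 members. For VIM-3039 minus VM-3055, 1 member (Ltbp2) passed as lower, where 2.35% of genes did. For VM-3055 minus MYC-2983, 2 members (Tgfbr3 and Inhba) passed as lower, beside 5.53% of genes. For VIM-3039 minus MYC-2983, 2 members (Inhba and Ltbp2) passed as lower, beside 4.52% of genes. As higher, limma called 0 members in these comparisons, where 3.7%, 3.26% and 4.54% of genes passed, and voom called 0. At an unadjusted p under 0.05, 3, 1 and 2 members were higher in that order. With a pseudocount of 10, Ltbp2 passed as higher for VM-3055 minus MYC-2983, at 1.34 (limma adjusted p = 1.21e-06) against 0.05 in the main analysis, while a pseudocount of 0.1 gave −0.43 and voom −0.27. The comparisons share the libraries of each line.

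The lines also differed under the same label. With Dox, VIM-3039 exceeded VM-3055 in 4 of 9 members, where 9.69% of genes passed as higher, and limma called 0 members lower, where 9.45% of genes did (1 member at an unadjusted p under 0.05, 0 by voom). These were Ltbp2 (log2 3.41 ± 0.28), Inhba (3.37 ± 0.128), Tgfb1 (2.47 ± 0.106) and Tgfb3 (1.04 ± 0.0998). The call of Tgfb3 was lost without library 4 of VM-3055 labelled Dox (0.96), after quantile normalization (0.73) and with a pseudocount of 10 (0.96). VM-3055 was lower than MYC-2983 in 6 of 9 members, beside 18.1% of genes, and limma called 0 higher, beside 6.54% of genes (2 at an unadjusted p under 0.05, 0 by voom). The log2 difference was −6.53 for Ltbp2, whose sizes against VM-3055 labelled Dox depend on the pseudocount because 3 of those 4 libraries were at or under the floor. The others were Tgfb3 (−4.50), Tgfb1 (−2.61), Inhba (−2.10), Tgfb2 (−1.78) and Tgfbr3 (−1.40). VIM-3039 was lower than MYC-2983 in 4 members, beside 18.3% of genes, namely Tgfb3 (−3.47), Ltbp2 (−3.12), Tgfbr3 (−1.44) and Tgfb2 (−1.15). It was higher in 1 member, Inhba, at 1.27 ± 0.117, beside 5.66% of genes. Smad7 was 0.9991 there and just missed the threshold, which it passed with a pseudocount of 0.1, TMM (1.11), quantile normalization (1.06) or voom. It also passed without library 4 of VIM-3039 labelled Dox (1.03) and without library 1 (1.03) or 4 of MYC-2983 labelled Dox. All 3 comparisons draw on the same labelled libraries. Their shift at 50 units or more was −0.14 for VM-3055 and −0.12 for VIM-3039 against MYC-2983, and −0.03 and −0.01 after TMM. The share of calls that were lower was 73.4% and 76.4%, or 50.2% and 54.2% after quantile normalization, which ended the calls of Tgfbr3 (−0.82 and −0.93) and, for VIM-3039, of Tgfb2 (−0.97).

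Without Dox the gaps between lines differed in size for some members. Tgfb2 was 1.59 higher (log2) in VIM-3039 than in VM-3055 without Dox, and 0.63 higher with the label. Tgfbr3 did not differ measurably between VM-3055 and MYC-2983 without Dox (−0.06, limma adjusted p = 0.43). For Inhba the gap of VM-3055 to MYC-2983 was −0.70 without Dox, and that of VIM-3039 to MYC-2983 was 2.89. The gap of Tgfb2 between VIM-3039 and MYC-2983 was −0.19 without Dox.

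Per kilobase of exon, the order of the members differed from line to line. Tgfb3 led in MYC-2983 without Dox at 2752 ± 82.9 units per kb (SD), far above Tgfbr2 at 378 ± 9.23 and Tgfb2 at 319 ± 8.19. In VM-3055 without Dox, Tgfbr2 led at 555 ± 14.3 per kb, ahead of Smad7 at 229 ± 8.58, while Tgfb2, Inhba and Tgfb3 (92.5 to 84.9) lay within their spread of each other and Ltbp2 was last at 1.70 ± 0.534. Inhba led in VIM-3039 without Dox at 1039 ± 107 per kb, followed by Tgfbr2 at 345 ± 9.51. With the Dox label Tgfb3 still led in MYC-2983 (552 ± 15.4) and Tgfbr2 in VM-3055 (162 ± 3.82). In VIM-3039 labelled Dox, Smad7 (158 ± 7.12) and Tgfbr2 (150.5 ± 3.71) led, with SD ranges that overlap. The SDs are between libraries, and all genes were read in the same libraries. They therefore do not test the order of close genes, and they do not cover error in exon length. In normal kidney the receptors Tgfbr1 (319 ± 20.1 per kb) and Tgfbr2 (259.9 ± 28.6) led, and Ltbp2 (0.750 ± 0.277) and Inhba (0.575 ± 0.329) were last. Tgfbr1 was first or second in all 3 tumour genotypes, at 279 ± 42.7 in MYC, 206.5 ± 16.9 in VIM and 157 ± 11.3 in VM. The MYC value is over 3 libraries from 2 mice, so its SD is not one between animals alone.

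The members sit in a wider list of 74 pathway genes in 6 groups, of which Mstn and Nodal were tested in no comparison. With the Dox label 39 of 72 tested genes passed as lower and 1 as higher in MYC-2983, 39 and 3 of 70 in VM-3055, and 31 and 3 of 71 in VIM-3039. Of all genes, 15% and 4.49%, 18.9% and 5.92%, and 16.6% and 7.67% passed in the same order, and counts of the smaller groups, such as the SMADs, should be read beside these shares. The median log2 difference of the list was −1.04, −1.10 and −0.91, beside all-gene medians of −0.13, −0.26 and −0.15. Quantile normalization left 31, 27 and 29 lower, beside 1471, 1465 and 1416 of all genes (2264, 2707 and 2322 with the authors' scaling). Target genes made up the largest part, with 18 of 24, 18 of 23 and 15 of 24 lower and 0 higher by limma. Of the genes of latency and activation, 9, 7 and 5 of 12 were lower. Ligands were lower in 5, 5 and 4 of 8, receptors in 2 of 9, 3 of 8 and 3 of 9, inhibitors in 4 of 10, 4 of 10 and 3 of 9, and SMADs with their corepressors in 1, 2 and 1 of 9. The medians of receptors and of SMADs lay between −0.16 and −0.45 in the 3 lines, and those of the targets between −1.27 and −1.54.

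In MYC-2983 the largest falls of the wider list under the naming rule were Col1a1, a chain of type I collagen (−2.49 ± 0.105), and the members Ltbp2 and Tgfb3. In VM-3055 they were Fst, the secreted activin antagonist follistatin (−4.54 ± 0.198), Inhba, and Col1a2 (−2.86 ± 0.0876). In VIM-3039 they were Edn1, the vasoconstrictor endothelin (−3.41 ± 0.0834), Ltbp2, and Acta2, smooth muscle actin (−3.28 ± 0.0668). Ltbp4, another latent TGF-beta binding protein, rose by 1.36 ± 0.0959 in VM-3055 and by 1.70 ± 0.0962 in VIM-3039. Tgif2, a corepressor of SMADs, rose by 1.23 ± 0.0565 in VM-3055 and 1.004 ± 0.0532 in VIM-3039. The call of Tgif2 in VIM-3039 was lost without library 1 (0.994) or 3 (0.995) labelled Dox, without library 1 (0.9995) or 3 (0.966) of those without Dox, and with a pseudocount of 10 (0.985). Acvr2b, an activin receptor chosen after its values were seen, was the 1 gene of the list that passed as higher in all 3 lines, at 2.19, 1.11 and 1.59, from levels under 15 units without Dox.

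**Figure D2:**
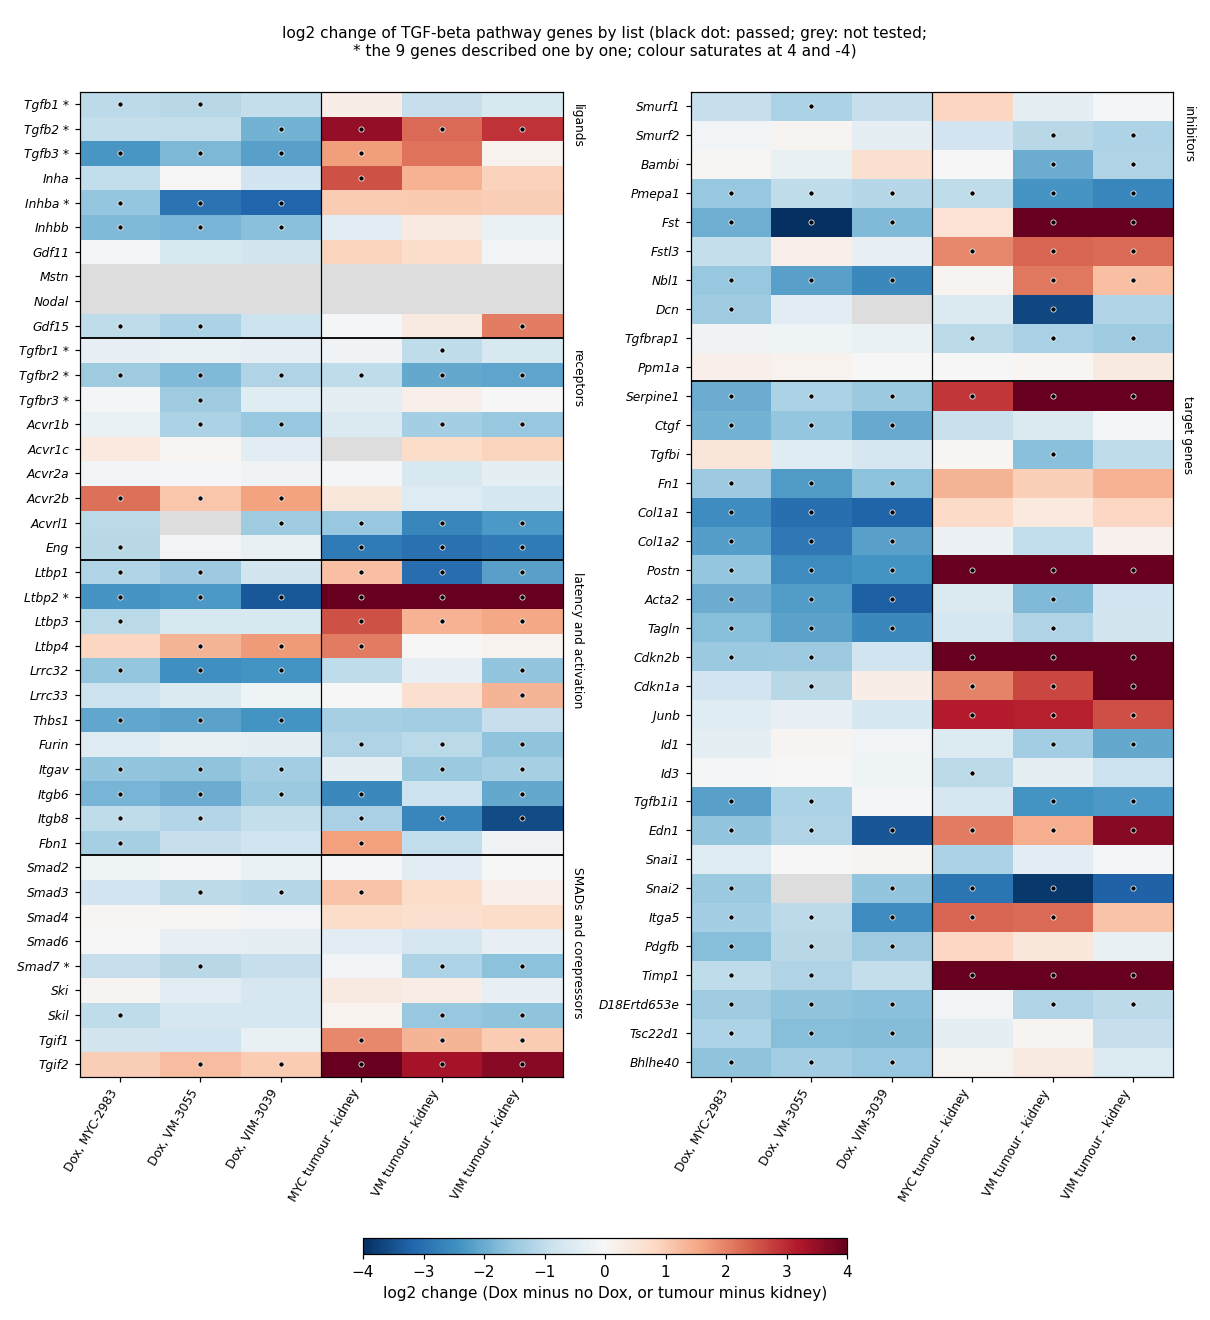
Log2 differences for the 74 genes of the wider pathway list, grouped by role, for Dox in each line and for each tumour genotype against kidney, with colour giving size and sign, dots the genes that passed and grey those not tested. In the Dox columns 39, 39 and 31 genes passed as lower in MYC-2983, VM-3055 and VIM-3039, and 1, 3 and 3 as higher.

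Marker genes of other cell types were read in the same libraries. In culture the defining endothelial markers Pecam1, Cdh5, Kdr, Tek and Emcn were near 0, with Flt1 making up almost all of the summed level. That sum was 589.5 to 636 units in MYC-2983 labelled Dox and 1452 to 1556 without, 763 to 791 and 1091 to 1299 in VM-3055, and 1084 to 1112 and 1551 to 1668 in VIM-3039. Leukocyte markers, with Csf1r the most abundant in all cell libraries, summed to 218 to 255 units with the label and 443 to 474 without in MYC-2983, 363 to 408 and 946 to 1013 in VM-3055, and 287 to 315 and 371 to 446 in VIM-3039. The epithelial sum, led by Cdh16 or Lrp2, was 15490.0 to 16660.0 and 21960.0 to 24020.0 units in MYC-2983, 10110.0 to 11740.0 and 18520.0 to 21260.0 in VM-3055, and 10310.0 to 10870.0 and 16770.0 to 18180.0 in VIM-3039. Of all genes, 15%, 18.9% and 16.6% passed as lower in MYC-2983, VM-3055 and VIM-3039, and 4.49%, 5.92% and 7.67% as higher. The marker counts should be read beside these shares. Epithelial markers passed as lower in 2, 2 and 3 of 8 (1 was higher in VIM-3039), leukocyte markers in 2 of 4, 4 of 5 and 0 of 5, and endothelial markers in 1 of 4, 0 of 3 and 0 of 2. The summed level of 8 fibroblast markers was 297 to 309 units in MYC-2983 labelled Dox and 992 to 1180.0 without. In VM-3055 it was 87.4 to 112 with the label and 631 to 710.1 without, and in VIM-3039 25.0 to 36.1 and 139.8 to 180.0, with Col1a2 the most abundant. Fibroblast markers passed as lower in 4 of 7, 3 of 5 and 2 of 3 tested, and mural markers in 4 of 5, 2 of 3 and 2 of 4, with 0 higher. The mural sum rested on Acta2 in MYC-2983 (16560.0 to 19420.0 units with the label, 69780.0 to 74230.0 without). The sums of all 5 marker lists, epithelial ones included, were lower with the label in every line, as most members were, and the fibroblast and mural lists share genes with the targets, among them Col1a1, Col1a2 and Acta2. Their part in the result was not tested.

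In tissue, the members split between lower and higher. MYC tumours had 1 member lower than kidney (18.6% of 16491 genes) and 3 higher (18.8%), VM tumours 3 lower (22.5% of 16521) and 2 higher (17.3%), and VIM tumours 2 lower (20.7% of 16569) and 2 higher (18.9%). The member medians of 0.26, 0.22 and 0.03 lay close to the all-gene medians of 0.07, −0.05 and 0.01. All 3 comparisons share the same 5 kidneys. The tissue is bulk, so fewer cells of a type and less RNA per cell cannot be told apart.

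Ltbp2 gave the widest difference. Its level was 120.5, 625 and 29.3 units in MYC tumours, 432, 170.3 and 99.6 in VM tumours and 92.3, 233 and 64.2 in VIM tumours. The kidneys had 8.65, 2.92, 6.69, 4.89 and 7.59 units, 2 of them at or under the floor. Every tumour library exceeded every kidney, although the 2 libraries of MYC mouse 2983 were themselves 625 and 29.3 units. Ltbp2 rose by 4.25 ± 0.474 (log2, SE) in MYC, 4.84 ± 0.545 in VM and 4.04 ± 0.515 in VIM tumours, with limma adjusted p of 0.000208, 5.42e-05 and 0.000148.

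Tgfb2 was also higher in tumours, with more spread. It stood at 203, 738 and 531 units in MYC, 451, 113 and 66.6 in VM and 245, 406 and 130.3 in VIM tumours, and at 12.1, 27.7, 18.7, 37.5 and 109 in kidney. The MYC and VIM tumours all exceeded the kidneys, while the third VM tumour lay below the fifth kidney. The rise was 3.50 ± 0.804 (log2, SE) in MYC tumours (limma adjusted p = 0.00693), and 2.69 without mouse 2983 (limma adjusted p = 0.0551), or 4.31 without mouse 2917. With either mouse left out the MYC arm is 1 animal, so that the spread comes from the kidneys alone and the lone animal is assumed to vary like them. In VIM tumours it was 2.90 ± 0.66 (limma adjusted p = 0.00454). In VM tumours it was 2.27 ± 0.77 (limma adjusted p = 0.0303), a call that 1 library could end. It was 1.48 without VM tumour 1 (limma adjusted p = 0.126), 1.62 with KT kidneys only and 2.47 without VM tumour 2 (limma adjusted p = 0.0537). Without kidney 1, 2 or 3 it was 1.95, 2.23 and 2.10 (limma adjusted p = 0.0614, 0.0556 and 0.0621).

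Tgfb3 was 65.3, 270.1 and 254 units in MYC, 1879, 74.2 and 43.2 in VM and 32.02, 43.9 and 60.6 in VIM tumours, against 34.6, 37.96, 24.1, 50.5 and 64.5 in kidney. A single VM tumour stood far above all others, and the MYC tumour of mouse 2917 was just above the highest kidney. The MYC difference of 1.68 ± 0.586 (log2, SE) passed (limma adjusted p = 0.0405). However, it was 0.69 without mouse 2983 and 2.68 without mouse 2917, each with 1 animal left in the MYC arm. Without kidney 1, 2, 3 or 4 the MYC difference was 1.63, 1.66, 1.51 and 1.76 (limma adjusted p = 0.074, 0.0723, 0.0744 and 0.0584). It was 2.14 with B6 kidneys only (limma adjusted p = 0.0822) and 1.38 with KT kidneys only (limma adjusted p = 0.144). With all tissue groups in one fit it was 1.68 (limma adjusted p = 0.246). The VM value of 2.16 ± 1.03 did not pass (limma adjusted p = 0.102), and rested on VM tumour 1, without which it was 0.49 (limma adjusted p = 0.39). It passed at 3.19 without VM tumour 3 and 3.14 after quantile normalization. The VIM value was 0.13 (limma adjusted p = 0.807).

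Tgfb1 passed in no tumour comparison. Its level was 278, 204 and 141 units in MYC, 144, 77.3 and 75.2 in VM and 156, 224 and 44.1 in VIM tumours, and 240.5, 137, 149, 169 and 237 in kidney. Tumours and kidneys overlapped in each case. The VM difference was −0.94 (limma adjusted p = 0.0289), and passed at −1.24 without VM tumour 1 and at −1.04 and −1.01 without kidney 2 or 3.

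Inhba was close to undetected in tissue. All 5 kidneys (0, 1.46, 1.34, 1.63 and 1.27 units) and all 3 VM tumours (3.99, 2.06 and 3.70) were at or under the floor. Among MYC tumours, library 2 of mouse 2983 had 30.9 units while the others had 0.933 and 1.41, at or under the floor. VIM tumours had 5.65, 8.77 and 0 units, with only the second above the floor. The tissue differences of Inhba are between groups mostly at or under the floor, so they are not read as changes and not all are printed. Inhba passed as higher than kidney in VM tumours after quantile normalization (limma adjusted p = 0.00441) and in VIM tumours without VIM tumour 3 (limma adjusted p = 0.0113), and in no comparison of tissue in the main analysis. All 24 cell libraries held at least 17.9 units of Inhba.

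Tgfbr2 was lower in all tumours than in any kidney. It stood at 1354, 1160.5 and 561 units in MYC, 684, 334 and 566 in VM and 448, 798 and 314 in VIM tumours, and at 2002, 2346, 1912, 2357 and 1892 in kidney. Tgfbr2 fell by 2.05 ± 0.217 (log2, SE) in VM tumours (limma adjusted p = 3.76e-05) and by 2.11 ± 0.264 in VIM tumours (limma adjusted p = 0.000131). In MYC tumours the difference was −1.0005 ± 0.207 (limma adjusted p = 0.00427), at the edge of the threshold for size. It came to −0.63 without mouse 2983, −0.96 without kidney 2 or 4 and −0.96 by voom, −0.90 after quantile normalization or with B6 kidneys only, and −0.99 with a pseudocount of 10.

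Tgfbr1 was 2079, 1864 and 1525 units in MYC, 1055, 1084 and 943 in VM and 1245, 1465 and 1338 in VIM tumours, beside 2045, 2000.0, 2086, 1976 and 2305 in kidney. All VM and VIM tumours lay below every kidney, as did both libraries of MYC mouse 2983, while that of mouse 2917 was in the kidney range. Tgfbr1 fell by 1.02 ± 0.113 (log2, SE) in VM tumours (limma adjusted p = 4.95e-05). The difference was −0.96 without VM tumour 3, −0.98 without kidney 5, −0.98 after TMM and −0.90 after quantile normalization. In VIM tumours the difference of −0.63 did not pass for size (limma adjusted p = 0.00245), and in MYC tumours it was −0.15 (limma adjusted p = 0.373).

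Tgfbr3 overlapped between tumours and kidney in all genotypes, with 357, 709.9 and 254 units in MYC, 1704, 289 and 403 in VM and 497, 393 and 683 in VIM tumours against 426, 493, 359, 495 and 858. The first VM tumour was the highest of all, as it was for Tgfb3. Its log2 differences were −0.37, 0.22 and 0.03, and the VM value became −0.56 without VM tumour 1. None passed by limma, where the adjusted p was 0.35, 0.749 and 0.948.

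Smad7 was 367, 481 and 309 units in MYC, 217, 124 and 197 in VM and 128, 165 and 108 in VIM tumours, and 438, 345, 384, 402 and 496 in kidney. VM and VIM tumours were below all kidneys, while 2 of the 3 MYC libraries were in the kidney range and library 3 was below it. Smad7 fell by 1.63 ± 0.212 (log2, SE) in VIM tumours (limma adjusted p = 0.000168) and by 1.23 ± 0.223 in VM tumours (limma adjusted p = 0.00111), the latter −0.98 without VM tumour 2. In MYC tumours the difference was −0.12 (limma adjusted p = 0.585).

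The count of members that passed was 1, not 4, in MYC tumours without mouse 2983 (an arm of 1 animal, with the spread taken from the kidneys), and 3, not 5, in VM tumours without VM tumour 2. Between tumour genotypes limma called 0 of 9 members in either direction, and voom called 0. For VIM against VM tumours 0.0746% of 16096 genes passed as lower and 0.174% as higher, and 0 members had an unadjusted p under 0.05. For VM against MYC tumours 0% and 0% of 16085 genes passed, while 3 members were lower and 0 higher at that p. For VIM against MYC tumours 0% and 0.00616% of 16246 genes passed, while 2 members were lower and 0 higher. The last of these included Smad7 at −1.50 ± 0.405 (limma adjusted p = 0.244), which passed with all tissue groups in one fit (limma adjusted p = 0.0202). The latter pair of comparisons was added after the values were seen.

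Of the wider list, 10 genes were lower and 20 higher of 71 tested in MYC tumours, 23 and 16 of 72 in VM tumours, and 20 and 17 of 72 in VIM tumours. Of all genes, 18.6% and 18.8%, 22.5% and 17.3%, and 20.7% and 18.9% passed in the same order. The list's median was 0.03, −0.36 and −0.20, beside 0.07, −0.05 and 0.01 for all genes. Receptors were lower in 3 of 8, 5 of 9 and 4 of 9, with 0 called higher by limma. Targets were split, at 2 lower and 8 higher of 24 in MYC, 7 and 8 in VM, and 4 and 7 in VIM tumours. Ligands were higher in 3, 1 and 2 of 8 with 0 lower, and genes of latency and activation were lower in 3, 4 and 6 and higher in 5, 2 and 3 of 12. SMADs and corepressors were lower in 0, 2 and 2 and higher in 3, 2 and 2 of 9, and inhibitors lower in 2, 5 and 4 and higher in 1, 3 and 3 of 10. Among the named rises was Cdkn2b, the CDK inhibitor p15 and a classical target, at 5.596 ± 0.495, 6.07 ± 0.443 and 6.87 ± 0.446. Those sizes depend on the pseudocount, as 4 of the 5 kidneys were at or under the floor for Cdkn2b, and for Fst, Postn and Timp1 2 of the 5 were. Fst rose by 6.28 ± 0.982 in VM and 7.27 ± 0.783 in VIM tumours, and Postn, the matrix protein periostin, by 4.37 ± 0.765 in MYC and 5.52 ± 1.21 in VM tumours. Timp1, a metalloprotease inhibitor, rose by 5.05 ± 0.729 in MYC and 4.76 ± 0.605 in VIM tumours. Eng, the endothelial co-receptor endoglin, gave −2.83 ± 0.318, −2.995 ± 0.5 and −2.78 ± 0.313, and Acvrl1, its endothelial type I receptor, −1.51 ± 0.31 in MYC and −2.62 ± 0.404 in VM tumours. Itgb6 and Itgb8, subunits of integrins that release latent ligand, gave −2.58 ± 0.213 in MYC and −3.58 ± 0.296 in VIM tumours, in that order. Ltbp1 gave −3.04 ± 0.838 in VM and Pmepa1, an inhibitor of SMAD activation, −2.60 ± 0.308 in VIM tumours. Some of these sizes rested on single animals. Postn in MYC tumours was 3.10 without mouse 2983 and 5.63 without mouse 2917, and in VM tumours 3.58, 6.44 and 6.55 without VM tumour 1, 2 or 3. Fst in VM tumours was 5.52 and 7.39 without VM tumour 1 or 2 and 6.92 without kidney 5, which took it to 7.90 in VIM tumours. Ltbp1 in VM tumours was −3.86 and −1.72 without VM tumour 2 or 3, and Eng −3.75 and −2.39 without VM tumour 1 or 2. With B6 kidneys only, the call of Acvrl1 in MYC tumours was lost, at −1.37 (limma adjusted p = 0.051). So were those of Postn, at 5.88 (limma adjusted p = 0.0539), and Ltbp1, at −2.75 (limma adjusted p = 0.152), in VM tumours. Voom did not call Postn there, at 5.44 (voom adjusted p = 0.0533).

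Markers of other cell types were read in tumours and kidney as well. Of all genes, 18.6%, 22.5% and 20.7% passed as lower in MYC, VM and VIM tumours, and 18.8%, 17.3% and 18.9% as higher. Several marker counts lie near these shares and should be read beside them. All 6 endothelial markers were lower in MYC and VIM tumours and 5 of 6 in VM tumours. Their summed level was 220 to 1688 units in MYC, 290 to 2120 in VM and 493 to 1092 in VIM tumours against 3693 to 6419 in kidney, and none of the 6 was at 0 in any tumour. Mural markers were lower in 3, 5 and 3 of 6, and Acta2 was the most abundant of them in 7 of the 9 tumour libraries. Leukocyte markers were higher in 4, 3 and 4 of 8 and lower in 0, 2 and 1, led by Lyz2 (1325 to 11380.0 units in tumours). Fibroblast markers were lower in 1, 3 and 1 and higher in 1, 0 and 0 of 8. Their sum was 1143, 12370.0 and 986 units in the MYC tumour libraries, so that the 2 libraries of mouse 2983 stood apart. Library 2, with the larger sum, also had the most Tgfb2, Tgfb3, Tgfbr3, Inhba, Smad7 and Ltbp2 of the MYC tumour libraries. The library of the other mouse had the most Tgfb1, Tgfbr1 and Tgfbr2. VM tumour 1 had the largest endothelial (2120.0 units, others 290 and 605), mural (1134, others 247 and 460), fibroblast (1715, others 603 and 940) and leukocyte sums (7977, others 2289 and 3439) of the VM tumours. It also had the most of every member except Tgfbr1 among them, although Inhba was at or under the floor in all VM tumours. Epithelial markers were lower in 6, 7 and 6 of 11 and higher in 2, 2 and 3, and Slc34a1 or Umod led a sum of 204800.0 to 268500.0 units in kidney against 11330.0 to 32190.0 in tumours. Endothelial sums were lower in every tumour library than in any kidney, as Tgfbr2 was. Their part in the result was not tested.

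Over the 38 libraries each member was set against 13354 genes with a group mean of at least 50 units. The points share cell line, label and tissue, so the coefficients describe these groups. Closest to Tgfb1 were 2610203C20Rik (Pearson r = 0.941) and Mon1b (0.929). Tgfb2 lay nearest to Large (0.953) and Snx24 (0.942), and Tgfb3 to Tmed9 (0.924) and Ranbp10 (0.913). Inhba was closest to Mmp10 (0.969) and Ppp1r18 (0.962). For the receptors they were Mapt (0.971) and Bscl2 (0.970) for Tgfbr1, Itgav (0.945) and Trim56 (0.937) for Tgfbr2, and Phkg2 (0.931) and Pcyox1 (0.921) for Tgfbr3. Ltbp2 was nearest to Sox8 (0.918) and Emp2 (0.915), and Smad7 to Pmepa1 (0.948) and Nuak1 (0.944). Of these, Itgav and Pmepa1 belong to the wider pathway list. Among the members themselves r ran from −0.71 (Tgfbr1 with Inhba) to 0.852 (Tgfbr2 with Smad7), and in the 24 cell libraries alone Tgfb2 with Ltbp2 had 0.954 and Tgfbr1 with Inhba 0.715.

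Promoter sequences of 300 bases (250 before to 50 after the start) were matched for 6 of the 9 members in the table used here, taken from RefSeq with build GRCm38.p6, and not for Tgfb3, Tgfbr3 and Smad7. The 7 promoters were searched on both strands for CACGTG, the E-box that MYC binds with MAX, which reads the same on either strand. They were also searched for a palindromic SMAD site, GTCTAGAC. The SMAD element CAGACA was the last motif, sought on both strands. CACGTG was in 1 member promoter, that of Tgfb2, and is in 7.15% of all 32851 promoters. CAGACA was in that of Tgfb2 and in the second promoter of Tgfbr1, and is in 21% of all. GTCTAGAC was in none, and is in 0.213% of all. The promoter of Tgfb2 is shown as the only one with both motifs, in capitals, and those of Inhba and Ltbp2 for their wide falls with the Dox label. They lie at chr1:186705940-186706239 (minus strand), chr13:16011601-16011900 (plus strand) and chr12:84876442-84876741 (minus strand). A match describes the letters in this window and no more.
Tgfb2: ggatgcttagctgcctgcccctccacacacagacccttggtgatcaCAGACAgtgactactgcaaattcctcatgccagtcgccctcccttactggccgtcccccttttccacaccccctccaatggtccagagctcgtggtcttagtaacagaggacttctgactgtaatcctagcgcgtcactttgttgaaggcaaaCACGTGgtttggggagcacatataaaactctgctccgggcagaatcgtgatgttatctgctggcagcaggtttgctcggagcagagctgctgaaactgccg
Inhba: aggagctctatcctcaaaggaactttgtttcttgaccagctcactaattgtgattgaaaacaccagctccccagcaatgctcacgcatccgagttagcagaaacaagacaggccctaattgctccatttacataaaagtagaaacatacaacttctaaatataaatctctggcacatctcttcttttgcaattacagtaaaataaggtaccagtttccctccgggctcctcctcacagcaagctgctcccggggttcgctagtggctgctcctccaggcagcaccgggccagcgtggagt
Ltbp2: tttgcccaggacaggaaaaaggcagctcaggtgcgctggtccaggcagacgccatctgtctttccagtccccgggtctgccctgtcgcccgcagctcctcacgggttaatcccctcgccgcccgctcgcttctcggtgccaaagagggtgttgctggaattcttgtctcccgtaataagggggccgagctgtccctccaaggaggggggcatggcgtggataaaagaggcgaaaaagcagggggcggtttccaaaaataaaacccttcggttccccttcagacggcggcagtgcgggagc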

How the data were processed

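RNA of 24 cell-line and 14 tissue libraries was sequenced (stranded mRNA, paired ends). The deposited signal values are RSEM gene counts that the authors obtained from MapSplice alignments to mm9 with UCSC genes, and scaled to an upper quartile of 1000 (998.1 to 1000 here). Picard 1.64 and SAMtools were used upstream. All 38 columns of 21705 genes were used, and 3235 genes were 0 throughout. Whole reads could not be recovered, since 94.1 to 95.9% of values above 0 and under 20 reads lay within 0.02 reads of a whole multiple of the estimated worth of 1 read.

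Values were tested with limma 3.58.1 (R 4.3.3, trend) on the log2 of the value plus 1, with Benjamini-Hochberg adjustment over all genes tested in a comparison. Genes above 0 in at least 4 libraries (2 in tissue) were fitted. The 2 libraries of MYC mouse 2983 were averaged. Of 15 comparisons, 2 between tumours were added after the values were seen. Figures and tables used Python 3.11.15, pandas 2.3.3, numpy 2.4.6 and matplotlib 3.10.9. The scripts were tested on simulated data.

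The members and the lists were chosen with earlier results of these data known. Named genes are the 9 members, the 3 engineered genes and the 2 genes most alike to each member among those with a group mean of 50 units. Up to 3 rises and 3 falls of the pathway list with a mean of 50 units and no overlap are also named. This was done for Dox within a line and for tumours against kidney, and those between lines are not printed. Nolc1, Ncl, Odc1 and Acvr2b were chosen outside this rule, after their values were seen. Alternatives were pseudocounts of 0.1 and 10, no filter, a mean of 10 units, TMM, quantile normalization, all groups in one fit, leave-one-out, a replicate block, cells without Dox, B6 or KT kidneys alone, and separate MYC libraries. Limma voom on estimated reads was added after the values were seen. Isoforms, transgene reads and proteins were not analysed.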

Additional observations from a re-analysis of the deposited data

Results flagged for a closer look

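Among 63 groups of libraries tested for 1 value far from the rest, 7 had such a value, where chance would give about 1 in 20 groups. Tgfb1 stood at 37.7 units in library 1 of VM-3055 labelled Dox (others 47.4 to 49.4) and at 254.6 in library 3 of VIM-3039 labelled Dox (others 258.9 to 259.3). Tgfb2 was 109 units in kidney 5 (others 12.1 to 37.5). Tgfb3 was 69.3 units in library 4 of VM-3055 labelled Dox (others 84.3 to 87.2). Tgfbr1 was 556 units in library 2 of MYC-2983 labelled Dox (others 519.4 to 522.7). Tgfbr3 was 858 units in kidney 5 (others 359 to 495). Inhba was 0 units in kidney 1 (others 1.27 to 1.63), which is 0 reads against 1 read in each of the others, all under the floor.

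The effect of the Dox label differed between lines, by the limma interaction, for 3 members, where 2.35% to 5.53% of all genes passed as lower in the same comparisons. For Ltbp2 the difference was −1.09 for VIM-3039 minus VM-3055 (limma adjusted p = 0.0218) and −1.04 for VIM-3039 minus MYC-2983 (limma adjusted p = 7.05e-07). In the first, 3 of the 4 VM-3055 libraries labelled Dox were at or under the floor, so a larger fall in VIM-3039 cannot be read from it. The first was lost by voom (−0.80), after quantile normalization (−0.93), with a pseudocount of 0.1 (−0.64) and without 1 of 2 libraries of VM-3055 (−0.89 and −0.86), and the second after quantile normalization (−0.30), with a pseudocount of 10 (−0.75) and without 1 of 3 libraries (−0.98, −0.98 and −0.99). For Tgfbr3 it was −1.34 for VM-3055 minus MYC-2983 (limma adjusted p = 3.68e-07), and lost after quantile normalization (−0.96). For Inhba it was −1.40 for VM-3055 minus MYC-2983 (limma adjusted p = 1.02e-06) and −1.62 for VIM-3039 minus MYC-2983 (limma adjusted p = 2.15e-09), of which the first was lost after quantile normalization (−0.57).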

How the results depend on the processing

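Most member results kept their direction and their side of the threshold. Quantile normalization kept 109 and changed 14 to weaker, 6 to stronger and 6 to the other direction. Voom, added after the values were seen, kept 124 and changed 2 to weaker, 1 to stronger and 8 to the other direction. In the same order, the counts were 130, 1, 2 and 2 for TMM, and 1130, 23, 11 and 51 for leaving out 1 library. Where results changed, the cause was not tested. edgeR was not run, because the unit is not counts. Inhba values in tissue, mostly at or under 3 reads, are listed for completeness and are not read as changes.

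With quantile normalization, Tgfbr3 with Dox in MYC-2983 became 0.13, Tgfb1 in VIM-3039 against MYC-2983 0.0358, Tgfb1 in the interaction of VIM-3039 minus VM-3055 −0.41 and in that of VM-3055 minus MYC-2983 0.57, Tgfbr1 in MYC tumours 0.0306 and Tgfbr3 in VIM tumours −0.0416. Members called were then 4 with Dox in VM-3055, and in the interactions 2 for VIM-3039 minus VM-3055, 1 for VM-3055 minus MYC-2983 and 1 for VIM-3039 minus MYC-2983. Of all genes, 1465 and 1300, 295 and 329, 535 and 460, and 551 and 540 then passed as lower and higher, in that order. With TMM, Tgfb1 in VM-3055 minus MYC-2983 was 7e-04, Tgfbr3 in VIM tumours −0.0161, and 2 members were called in VIM-3039 minus VM-3055. In that comparison 368 of all genes were lower and 486 higher after TMM. By voom, Tgfb2 and Ltbp2 in VM-3055 minus MYC-2983 were −0.0014 and −0.27, Tgfbr1 in VIM-3039 minus MYC-2983 3e-04, Tgfbr3 in VIM tumours −0.004, and Tgfbr2 and Inhba between VIM and VM tumours 9e-04 and 0.07. Between VM and MYC tumours Inhba was −0.38 and Ltbp2 −0.10 by voom. In VIM-3039 minus VM-3055 voom called 0 members and 4 pathway genes, as did a pseudocount of 0.1 (0 and 4), under which Ltbp2 in VM-3055 minus MYC-2983 was −0.43. A pseudocount of 10 gave Tgfb1 in VM-3055 minus MYC-2983 0.0641, 1 member called in VIM-3039 minus MYC-2983, and Inhba 0.12 between VIM and VM and −0.22 between VM and MYC tumours. Without Dox, Tgfbr2 in VIM-3039 against MYC-2983 was −0.13. With B6 kidneys 2 members were called in MYC tumours. With KT kidneys Tgfbr3 was −0.0257 in VM and −0.22 in VIM tumours, and Tgfb3 −0.18 in VIM tumours. All groups in one fit called 2 pathway genes between VIM and VM, 4 between VM and MYC, and 6 with 1 member between VIM and MYC tumours. Counts given here for voom, pseudocounts, B6 kidneys, all groups in one fit, leave-one-out and a replicate block have no share of all genes beside them. They are not read as above or below that share.

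Leaving out 1 library gave these lowest and highest values, where leaving out a MYC mouse leaves 1 animal, assumed to vary like the other group. In cells, Tgfbr3 in VIM-3039 against VM-3055 ran from −0.14 to 0.0717. In the interaction of VIM-3039 minus VM-3055, Tgfbr1 ran from −0.14 to 0.0077 and members called from 0 to 2. In that of VM-3055 minus MYC-2983, Tgfb1 ran from −0.0849 to 0.0457, Tgfb2 from −0.0243 to 0.0415, Tgfbr1 from −0.0125 to 0.14 and Ltbp2 from −0.18 to 0.27. In that of VIM-3039 minus MYC-2983, Tgfbr1 ran from −0.0321 to 0.0188, Smad7 from −0.0442 to 0.0235 and members called from 1 to 2. In MYC tumours Tgfb1 ran from −0.10 to 0.61, Tgfbr1 from −0.30 to 2e-04, Inhba from −0.0689 to 2.11 and members called from 1 to 4. In VM tumours Tgfbr3 ran from −0.56 to 0.72 and members called from 3 to 5. In VIM tumours Tgfb1 ran from −1.12 to 0.0453, Tgfb3 from −0.10 to 0.35 and Tgfbr3 from −0.18 to 0.22. Between VIM and VM tumours Tgfb1 ran from −0.18 to 0.98, Tgfbr2 from −0.43 to 0.24, Tgfbr3 from −0.70 to 0.58, Inhba from −0.69 to 0.96 and pathway genes called from 0 to 1. Between VM and MYC tumours Tgfb3 ran from −1.20 to 1.51, Tgfbr3 from −0.19 to 1.09 and Inhba from −1.08 to 1.105. Between VIM and MYC tumours Tgfb2 ran from −1.41 to 0.21, Inhba from −1.12 to 1.06, Ltbp2 from −0.73 to 0.19 and pathway genes called from 0 to 1.

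Pairing by replicate number was examined in VM-3055 and VIM-3039. Same-numbered libraries had mean correlations of −0.184 (−0.307 to −0.0463) in VM-3055, 0.0154 (−0.0622 to 0.108) in VIM-3039 and 0.058 (−0.0735 to 0.211) between these lines with the Dox label. Libraries with other numbers had means of 0.0614, −0.00499 and −0.0193 in that order. So few libraries cannot show whether dishes were paired by number. With a replicate block limma called 7 members with Dox in VM-3055, 5 in VIM-3039, 4 between these lines and 1 in their interaction, and it changed no member's call in these.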
